A study of Mus musculus with 6 samples.

Results

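The genes described are the enzymes of prostaglandin and leukotriene synthesis and breakdown: Ptgs1, Ptgs2, Ptges, Hpgds, Hpgd, Alox5, Alox5ap, Ltc4s and Lta4h, which are 9 of the 32285 genes counted. They were taken by symbol, and each symbol named 1 gene. Their UMIs (unique molecular identifiers, each standing for 1 captured transcript) were summed over marker-gated cell classes of single-cell RNA-seq libraries from mouse ovarian tumors, with 1 mouse and 1 library for each of 6 groups. The tumors were grown, by the study's methods, from KPCA cells, a homologous recombination-proficient ovarian cancer line, injected into the ovarian bursa of female C57BL/6 mice. The tissue in the sample labels is lymph node, while the series text speaks of young and aged mice, with no age given for any sample. The study's methods give a single age range, in weeks, for the injected mice. The control group received solvent and control rat IgG. The 2DG group received 2-deoxy-D-glucose, a glucose analog, and the 2FF group a fluorinated fucose analog, for which the injected tumor cells had also been pre-treated. The anti-PD-L1 group received a blocking antibody against the checkpoint ligand, and the last 2 groups received the antibody together with an analog, 2DG plus anti-PD-L1 in the one and 2FF plus anti-PD-L1 in the other. All treatment comparisons below use either the control or the anti-PD-L1 library as their base.

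Both enzyme branches start from arachidonic acid, which phospholipases release from membranes. The cyclooxygenases Ptgs1 (largely constitutive) and Ptgs2 (inducible by inflammatory stimuli) convert it to prostaglandin H2, from which Ptges makes prostaglandin E2 and Hpgds makes prostaglandin D2, and Hpgd inactivates prostaglandins by oxidising them. In the other branch Alox5, helped by the membrane protein Alox5ap, makes leukotriene A4, which Lta4h turns into leukotriene B4, a neutrophil attractant, and Ltc4s into leukotriene C4. In tumors, prostaglandin E2 is best known for dampening T cells and dendritic cells.

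Keeping cells with at least 250 genes and at most 5% of UMIs from mitochondria, 51633 of 57078 barcodes remained, with a median of 6196 to 7732 UMIs per cell and 61859753 to 73885214 UMIs per library. The 11 classes compared held 26577 cells: 4376 neutrophils, 8967 classical monocytes low and 2035 high in interferon genes, 2711 non-classical monocytes, 5667 macrophages gated on Mrc1 and complement genes, 400 gated on Spp1 and Gpnmb, 402 type 1, 1176 type 2, 581 mature migratory and 166 plasmacytoid dendritic cells, and 96 tumor cells. A class entered with at least 20 cells in a library, so that tumor cells were compared in 3 libraries and plasmacytoid dendritic cells in 4. None of the 9 genes was used in the gate. The control library stood apart, with 74.7% of its cells in these classes against 41.9% to 54.0% in the others, and with 2782 of the 4376 neutrophils. Between 16 and 34 barcodes were shared by any 2 libraries, at most 0.345% of the smaller. Lymph node stroma markers were present, with 3029 to 7947 UMIs per library.

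Among the 11 classes compared, the genes peaked in different ones (the plot of levels by class). The level is given in CPM, counts of the gene scaled to 1000000 UMIs of the class, as the median of the libraries with the lowest and highest in brackets. Ptgs2 was highest in neutrophils (1001 CPM, 485.2 to 1107), Ptges in Spp1 macrophages (67.2 CPM, 31.5 to 115.9), Hpgds in Mrc1 macrophages (35.9 CPM, 30.5 to 69.97), Hpgd in non-classical monocytes (82.9 CPM, 45.8 to 111.5), Alox5 in neutrophils (86.6 CPM, 49.4 to 128.7) and Ltc4s in Mrc1 macrophages (43.2 CPM, 26.1 to 50.3). Lta4h was highest in type 2 dendritic cells (83.2 CPM, 69.1 to 145.2) and Ptgs1 in Mrc1 macrophages (84.1 CPM, 64.2 to 94.9) among those of the 11 classes measured in all 6 libraries. The few cells gated as tumor cells, which had a mixed marker profile, were above them in Ptgs1 in 2 of their 3 libraries (161.4 CPM, 59.2 to 167.3). Alox5ap differed from all of these in being spread over 9 of the 11 classes at medians of 269.1 to 538.7 CPM. The same class ranked first in 6 of 6 libraries for Ptges, Hpgd and Alox5, and in 5 of 6 for Ptgs2, Hpgds, Ltc4s and Lta4h.

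**Figure D1:**
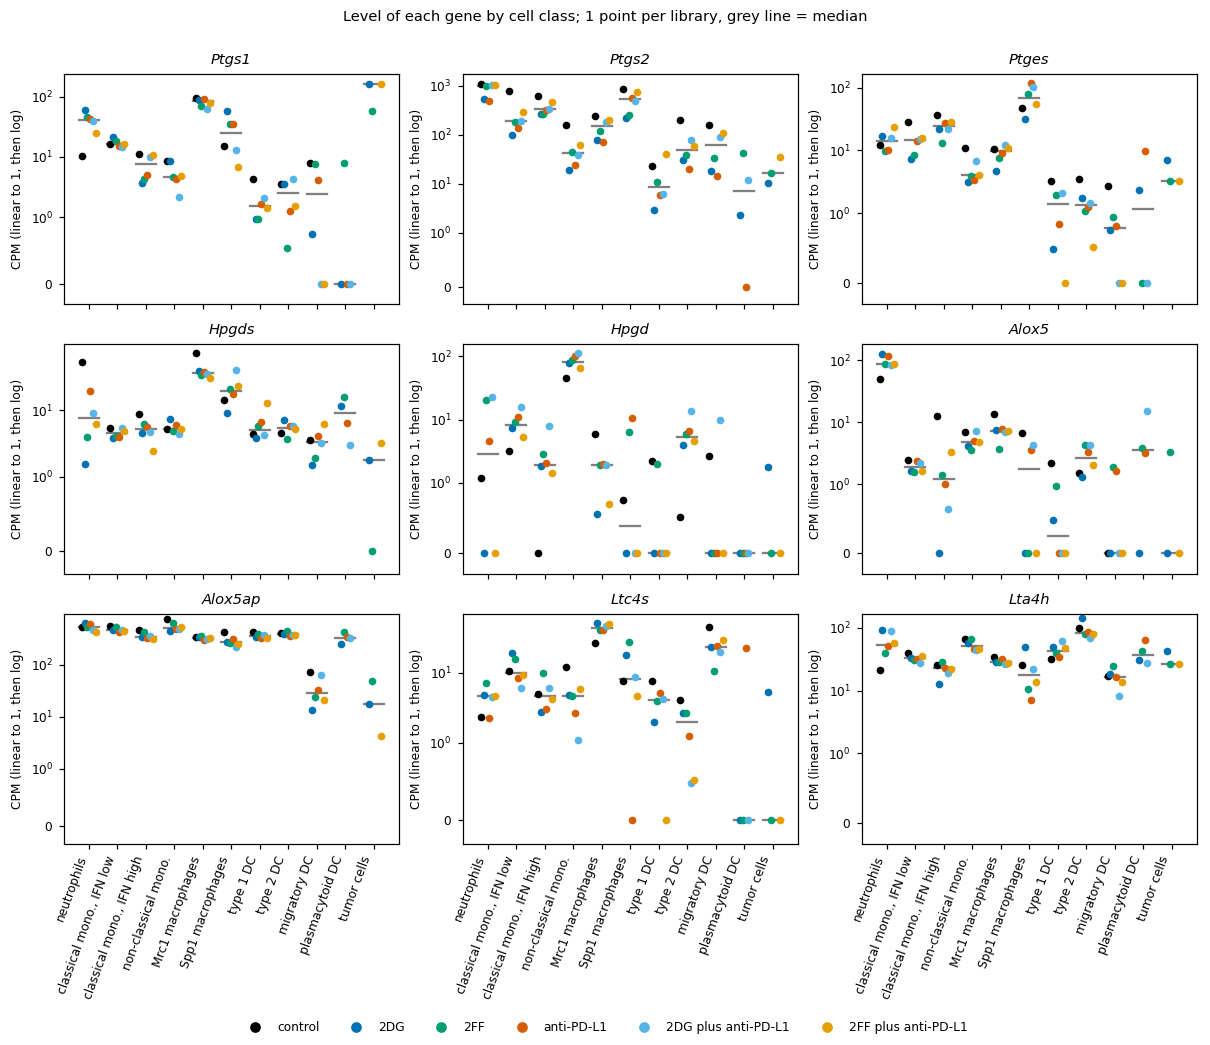
Level of each of the 9 genes in 11 cell classes (x axis) in CPM (y axis, linear up to 1 and logarithmic above), with 1 point per library coloured by treatment group and a grey line at the median. Hpgd in non-classical monocytes and Alox5 in neutrophils lie above every other class in all libraries, while Alox5ap is spread over most classes and low in migratory dendritic cells and tumor cells.

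All 9 genes are protein coding, and their positions below are those of GRCm38 (mm10). To show the regulatory sequence in front of the member that differed between libraries in most classes, of its constitutive relative and of the member most restricted to neutrophils, the 250 bases before the start sites of Ptgs2 (chr1:150099781-150100030, plus strand), Ptgs1 (chr2:36230176-36230425, plus strand) and Alox5 (chr6:116461179-116461428, minus strand) are shown from RefSeq, build GRCm38.p6, 5′ to 3′. Capitals mark matches to any of 4 motifs searched on both strands, the TATA box as TATAAA, the GC box as GGGCGG, the cyclic AMP response motif as TGACGT and the E box as CACGTG.
Ptgs2: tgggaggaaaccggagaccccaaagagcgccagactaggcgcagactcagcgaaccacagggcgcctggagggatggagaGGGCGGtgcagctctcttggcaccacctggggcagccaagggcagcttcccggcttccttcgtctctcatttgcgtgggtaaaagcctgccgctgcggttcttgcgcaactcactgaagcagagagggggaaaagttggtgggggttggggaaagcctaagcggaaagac
Ptgs1: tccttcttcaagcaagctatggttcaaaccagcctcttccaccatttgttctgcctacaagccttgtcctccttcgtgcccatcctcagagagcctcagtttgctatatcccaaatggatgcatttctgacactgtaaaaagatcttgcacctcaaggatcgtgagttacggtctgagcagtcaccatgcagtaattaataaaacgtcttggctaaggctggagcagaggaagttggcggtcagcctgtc
Alox5: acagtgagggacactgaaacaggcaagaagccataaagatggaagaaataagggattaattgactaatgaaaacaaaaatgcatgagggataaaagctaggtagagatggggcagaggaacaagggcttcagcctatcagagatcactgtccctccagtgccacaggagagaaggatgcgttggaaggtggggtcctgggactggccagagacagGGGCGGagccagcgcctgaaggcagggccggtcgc
The only motif found in these was GGGCGG, once in Ptgs2 with its first base at -170 from the start and once in Alox5 at -35, and none of the 4 was found in Ptgs1. GGGCGG occurs in 32.7% of all 32851 promoter windows of this length, TATAAA in 12.4%, TGACGT in 6.47% and CACGTG in 6.02%. GC content was 61.6% in Ptgs2, 48.0% in Ptgs1 and 52.8% in Alox5. Of the other members, Ptges held GGGCGG at 2 places and Hpgd at 1, while Hpgds, Ltc4s and Lta4h held none of the 4 motifs, and Alox5ap had no entry. The Ptges window (chr2:30903298-30903547, minus strand) lies inside the gene span given for Ptges below. Only the 250 bases before each RefSeq start were searched, so a motif not found may lie outside them.

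Where the UMIs lay depended on class size as well as level (the plot of UMI holders). With the 6 libraries pooled, Mrc1 macrophages held 58.5% of all Ptgs1 UMIs in kept cells, 59.5% of Ltc4s and 44.2% of Hpgds. Non-classical monocytes held 54.6% of Hpgd (39.0% to 66.0% in single libraries), and neutrophils 50.3% of Alox5 (27.0% to 64.5%). With 2DG plus anti-PD-L1, Mrc1 macrophages held more Alox5 UMIs than neutrophils (80 against 74). For Ptgs2, the classical monocytes low in interferon genes held more of the total, 33.2%, than the neutrophils, 25.4%, although their level was lower. T cells, outside the 11 classes, held 37.9% of Lta4h, with 9.37% to 47.2% in single libraries. In the control library they held 264 Lta4h UMIs, fewer than the 898 of the classical monocytes low in interferon genes. Cells in no class held 10.3% to 17.4% of each gene.

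**Figure D2:**
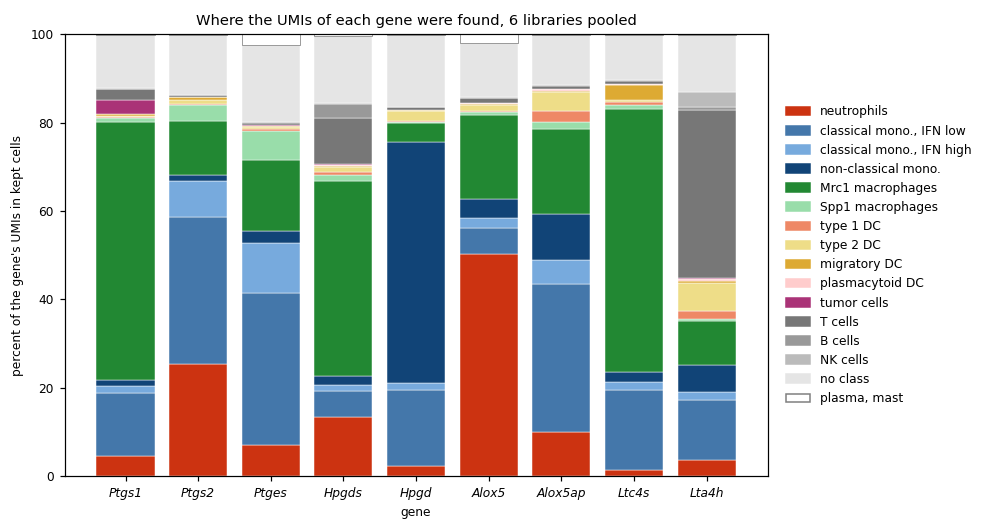
Percent of each gene's UMIs in kept cells (y axis) found in each cell class (colours) for the 9 genes (x axis), 6 libraries pooled. Mrc1 macrophages (green) hold most of Ptgs1 and Ltc4s, non-classical monocytes (dark blue) most of Hpgd and neutrophils (red) 50.3% of Alox5. T cells (dark grey) are the largest holder of Lta4h in the pool, though not in the control library alone.

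Differences between classes were tested over the 6 libraries, with the library as a block since both classes came from the same mouse, by edgeR's quasi-likelihood test with Benjamini-Hochberg adjustment over all genes tested. The fold changes of this test use a further scaling of the class sums (TMM), so they can differ from ratios of the CPM values. The libraries differ in treatment, and each is 1 mouse. Classes were made by marker genes and differ at very many genes, so a call alone says little. Of the 9 genes, 7 passed an adjusted p of 0.05 between neutrophils and classical monocytes low in interferon genes (6 higher, 1 lower; 65.5% of all genes passed), 9 between Mrc1 macrophages and those monocytes (4 higher, 5 lower; 51.6%), 5 of 8 tested between Spp1 and Mrc1 macrophages (2 higher, 3 lower; 27.9%), 8 between non-classical and classical monocytes low in interferon genes (4 higher, 4 lower; 51.6%), 7 between classical monocytes high and low in interferon genes (2 higher, 5 lower; 37.8%) and 3 of 4 tested between mature migratory and type 2 dendritic cells (1 higher, 2 lower; 60.8%). The median log2 fold change over all genes was -0.15 for neutrophils against monocytes, -0.12 for Spp1 against Mrc1 macrophages, and no farther from 0 than -0.03 in the other 4 comparisons. The size of single differences is shown in the plot of class comparisons.

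**Figure D3:**
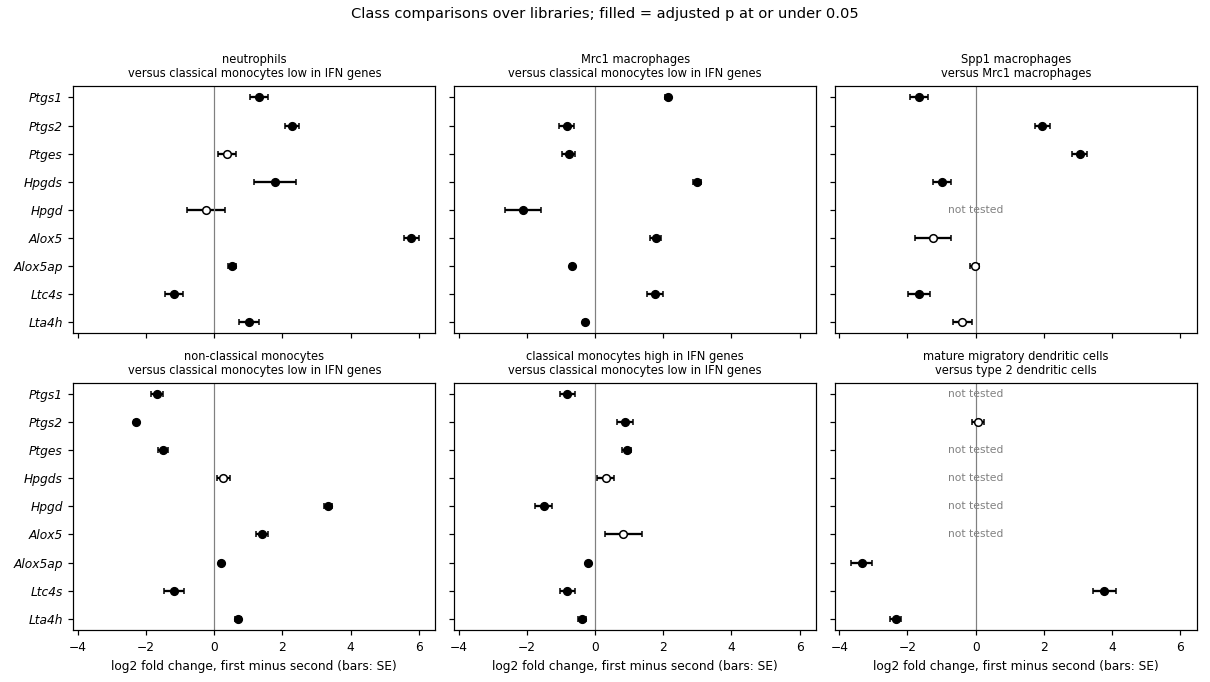
Log2 fold change (x axis; bars, standard error) of each gene (y axis) in 6 comparisons of cell classes over 6 libraries; filled points passed an adjusted p of 0.05 in edgeR's quasi-likelihood test. Alox5 in neutrophils at 5.78, Ltc4s in migratory dendritic cells at 3.77 and Hpgd in non-classical monocytes at 3.35 are the largest positive differences, and Alox5ap in migratory dendritic cells at -3.34 the largest negative one.

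Ptgs2 (chr1:150100031-150108227), the inducible cyclooxygenase, had 1107 CPM in control neutrophils, 543.2 with 2DG, 979.7 with 2FF, 485.2 with anti-PD-L1, 1022 with 2DG plus anti-PD-L1 and 1066 with 2FF plus anti-PD-L1. The neutrophil level was above that of the classical monocytes low in interferon genes within each of the 6 libraries, although the ranges overlapped because the control monocytes were also high. The log2 fold change was 2.28 ± 0.21 (SE; edgeR, adjusted p = 3.16e-06), a 4.86-fold difference. Spp1 macrophages had 220.4 to 854.6 CPM and exceeded Mrc1 macrophages (70.4 to 239.4 CPM) in 6 of 6 libraries, by 1.95 ± 0.22 on the log2 scale (edgeR, adjusted p = 6.502e-05). Non-classical monocytes were lower than classical monocytes low in interferon genes in 6 of 6 libraries, by -2.29 ± 0.06 (edgeR, adjusted p = 3.934e-11). Mrc1 macrophages were lower than the same monocytes by -0.83 ± 0.23 (edgeR, adjusted p = 0.01593), a call lost without the filter on low counts (adjusted p = 0.0956). Monocytes high in interferon genes exceeded those low in them in 5 of 6 libraries, by 0.88 ± 0.23 (edgeR, adjusted p = 0.03079). This call was lost on leaving out any one of the 5 treated libraries (adjusted p 0.0577 to 0.0763), while without the control library the difference was 1.09 (adjusted p = 0.0029). Type 1 dendritic cells, at a median of 8.50 CPM, had the lowest level of the 9 compared classes measured in all 6 libraries.

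Ptgs2 was detected in many cells and was very uneven among them. Between 44.0% and 71.9% of neutrophils had a UMI, against 0.729% to 8.47% of T cells, at median depths of 2540 to 3896 and 5598 to 7330 UMIs. Thinned to 1000 UMIs per cell, the neutrophil share was 29.7% to 51.0% and the T cell share 0.154% to 3.73%. The 10% of neutrophils with the most Ptgs2 held 40.8% to 55.9% of its UMIs in a library, and the corresponding 10% of Mrc1 macrophages held 56.6% to 80.9%. In the control library 14.7% of 75 B cells and 8.47% of 437 T cells had a Ptgs2 UMI (53.3 and 27.7 CPM), whereas in the 5 other libraries both classes were at or under 4.04 CPM. The control levels of 159.8 CPM in non-classical monocytes and 202.7 CPM in type 2 dendritic cells were above both, and that of 23.4 CPM in type 1 dendritic cells was below both. Whether counts at that level reflect expression in these cells was not tested. 

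An early response list of 15 genes (Fos, Jun, Egr1, Hspa1a and others that tissue dissociation also induces) was summed beside Ptgs2. In neutrophils it reached 22260 CPM in the control library and 15210 to 19290 CPM in the 5 others, in classical monocytes low in interferon genes 11820 CPM against 9962 to 13940 CPM, and in Mrc1 macrophages 10610 CPM against 7797 to 13600 CPM. In non-classical monocytes it was 13940 CPM against 10490 to 11880 CPM. The control library was thus highest in the list in neutrophils and non-classical monocytes. It was also highest in type 1 (7717 against 3873 to 5881 CPM) and mature migratory dendritic cells (5073 against 3223 to 4708 CPM). In the other classes measured in all 6 libraries, among them classical monocytes low in interferon genes and Mrc1 macrophages, a combination library was higher. The control was above the 2DG, 2FF and anti-PD-L1 libraries in each of these classes, in the list as in Ptgs2. The part of dissociation in the Ptgs2 levels was not tested.

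Ptgs1 (chr2:36230426-36252272), the constitutive cyclooxygenase, marked Mrc1 macrophages among the myeloid classes. Its level there was 94.9 CPM in the control library, 90.1 with 2DG, 70.4 with 2FF, 94.2 with anti-PD-L1, 64.2 with 2DG plus anti-PD-L1 and 78.1 with 2FF plus anti-PD-L1. All 6 values were above every value of the classical monocytes low in interferon genes (14.6 to 21.2 CPM), with a log2 fold change of 2.13 ± 0.08 (edgeR, adjusted p = 1.017e-07). Spp1 macrophages were lower than Mrc1 macrophages in 6 of 6 libraries, by -1.65 ± 0.26 (edgeR, adjusted p = 9.102e-05), so that the 2 cyclooxygenase genes differed in opposite directions between the macrophage classes. Ptgs1 was also lower in non-classical monocytes than in classical monocytes low in interferon genes, by -1.68 ± 0.16 (edgeR, adjusted p = 2.51e-06), without overlap. Monocytes high in interferon genes were likewise below those low in them in every library, by -0.81 ± 0.22 (edgeR, adjusted p = 0.01188). Neutrophils ranged from 10.6 CPM in the control library to 61.6 CPM with 2DG and exceeded the monocytes in the 5 treated libraries only, by 1.31 ± 0.25 over all 6 (edgeR, adjusted p = 0.0005532).

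In tumor cells Ptgs1 was at 161.4 CPM with 2DG (91 UMIs in 27 cells), 59.2 CPM with 2FF (18 UMIs in 27 cells) and 167.3 CPM with 2FF plus anti-PD-L1 (156 UMIs in 24 cells). The 9 tumor markers summed to 1792 to 2729 CPM in those 3 libraries, beside 322.6 to 1105 CPM of fibroblast and mesothelium, 2656 to 4011 CPM of classical monocyte and 2511 to 5846 CPM of Spp1 macrophage markers, so the label of these few cells rests on a mixed profile. The part of the other lists in the Ptgs1 level was not tested. The genes whose class means were most like those of Ptgs1 (Pearson r of log2(CPM + 5) over 15 classes, given as a description) were Etv1 (r = 0.87), Gja1 (0.85) and Pdlim7 (0.84), each of which had its own highest level in the tumor cells. For Ptgs2 they were Slc7a11 (0.98), a cystine transporter, Il1rn (0.98), the interleukin 1 receptor antagonist, and Adamtsl4 (0.96).

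Among the compared classes, Ptges (chr2:30889471-30929863), the inducible prostaglandin E synthase, was highest in Spp1 macrophages in every library. It had 47.2 CPM there in the control library (220 cells), 31.5 with 2DG (20 cells), 79.4 with 2FF (48 cells), 115.9 with anti-PD-L1 (38 cells), 100.5 with 2DG plus anti-PD-L1 (29 cells) and 55.01 with 2FF plus anti-PD-L1 (45 cells). The lowest of these was above the highest value of Mrc1 macrophages, 12.2 CPM. The log2 fold change was 3.05 ± 0.23 (edgeR, adjusted p = 6.319e-13), 8.28-fold, and no smaller than 2.89 when any library was left out. Together with Ptgs2, Ptges was thus one of 2 members higher in the Spp1 class, which holds only 7 to 126 Ptges UMIs per library. Ptges was higher in classical monocytes high in interferon genes than in those low in them in 6 of 6 libraries (0.93 ± 0.13; edgeR, adjusted p = 5.505e-05). It was lower in non-classical monocytes than in classical monocytes low in interferon genes (-1.49 ± 0.15; edgeR, adjusted p = 2.403e-06). Neutrophils, the highest class for Ptgs2, had 9.80 to 23.1 CPM of Ptges and did not pass against the monocytes (0.37 ± 0.27; edgeR, adjusted p = 0.2415). Without the control library that difference was 0.76 and passed (adjusted p = 0.01078). In the same neutrophils a Ptges UMI was found in 2.16% to 5.05% of cells, and in T cells in 0.0329% to 0.229%. Plasma cells, 6 to 36 per library, were outside the compared classes. They were left out of this ranking, so Spp1 macrophages need not be the highest of all gated cells. A predicted gene overlaps Ptges on the same strand in the annotation, so some reads may be shared.

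Ptgs2 and Ptges were also compared within cells, as a description with no test. Among classical monocytes low in interferon genes, 7.18% to 22.1% of the Ptgs2-positive and 3.12% to 9.49% of the other cells had a Ptges UMI, at median depths of 7206 to 10970 and 6593 to 9994 UMIs. The ranges overlapped, while within each of the 6 libraries the first share was the higher. In neutrophils the 2 shares were 2.24% to 5.13% and 1.34% to 9.38%, with overlapping ranges. Deeper cells have more of every gene, and the part of depth in this was not tested.

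Hpgds (chr6:65117293-65144908), the haematopoietic prostaglandin D synthase, had 69.97 CPM in the Mrc1 macrophages of the control library, 38.7 with 2DG, 33.6 with 2FF, 37.5 with anti-PD-L1, 34.4 with 2DG plus anti-PD-L1 and 30.5 with 2FF plus anti-PD-L1. The control value stood apart from the 5 others, which lay close together. Against classical monocytes low in interferon genes (3.78 to 5.47 CPM) the class was 7.94-fold higher, 2.99 ± 0.12 on the log2 scale (edgeR, adjusted p = 2.026e-07). Hpgds in those monocytes was no higher than in T cells (5.72 to 8.24 CPM), and whether counts at that level reflect expression in the monocytes was not tested. In Mrc1 macrophages 16.5% to 30.5% of cells had a UMI, against 2.93% to 4.53% of T cells and 5.94% to 14.5% of B cells. These shares are not scaled for depth, and Mrc1 macrophages had more UMIs per cell than T cells or B cells. The B cell level of 10.3 to 34.9 CPM exceeded that of most myeloid classes. It overlapped the range of the Mrc1 macrophages (30.5 to 69.97 CPM), so the shares alone overstate the gap to B cells.

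Neutrophils of the control library were exceptional for Hpgds, with 745 UMIs in 2782 cells (51.5 CPM) against 2 to 17 UMIs and 1.58 to 19.4 CPM in the 5 other libraries. Of the control neutrophils 9.17% had a Hpgds UMI, and the share was 0.635% to 2.40% in the others. Markers of B cells summed to 2.28 CPM and of Mrc1 macrophages to 152.7 CPM in the control neutrophils, against 8.49 to 11.6 CPM and 107.4 to 314.6 CPM in the other neutrophils. Neutrophils exceeded classical monocytes low in interferon genes by 1.78 ± 0.62 (edgeR, adjusted p = 0.03601), in 4 of 6 libraries. The call was lost without the anti-PD-L1 library (1.55, adjusted p = 0.0979) or the 2DG plus anti-PD-L1 library (1.95, adjusted p = 0.053), with doublets left out (1.76, adjusted p = 0.0737) and with 1 more marker asked of each cell (1.38, adjusted p = 0.191). Without the control library the difference was 1.06 (adjusted p = 0.0355). Spp1 macrophages were lower than Mrc1 macrophages by -0.99 ± 0.28 (edgeR, adjusted p = 0.008014), which without the control library became -0.51 (adjusted p = 0.226).

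Hpgd (chr8:56294585-56321043), the prostaglandin dehydrogenase, was highest in non-classical monocytes. They had 45.8 CPM in the control library, 77.4 with 2DG, 88.3 with 2FF, 103.4 with anti-PD-L1, 111.5 with 2DG plus anti-PD-L1 and 66.2 with 2FF plus anti-PD-L1, and each value was above all values of every other class. Classical monocytes low in interferon genes had 3.16 to 15.9 CPM and were next in 3 of 6 libraries. Neutrophils were next with 2FF (20.2 CPM from 31 UMIs) and 2DG plus anti-PD-L1 (22.7 CPM from 20 UMIs), and Mrc1 macrophages in the control library (5.89 CPM). The log2 fold change between non-classical and classical monocytes low in interferon genes was 3.35 ± 0.11 (edgeR, adjusted p = 2.378e-10), 10.2-fold, and 3.26 to 3.47 on leaving out each library. These monocytes thus combined the highest Hpgd with low Ptgs2, Ptgs1 and Ptges, each lower than in the classical monocytes. A Hpgd UMI was found in 12.0% to 26.9% of non-classical monocytes and in 0.0348% to 0.243% of T cells. Hpgd was lower in monocytes high in interferon genes than in those low in them (-1.504 ± 0.26; edgeR, adjusted p = 0.0003474). It was also lower in Mrc1 macrophages than in classical monocytes low in interferon genes (-2.12 ± 0.53; edgeR, adjusted p = 0.01114), a call lost without the filter on low counts (-2.09, adjusted p = 0.0667). The control library went the other way, with 5.89 CPM in Mrc1 macrophages against 3.16 CPM in those monocytes. Adgre4 (r = 0.96), Ace (0.96) and Cyp2ab1 (0.95) were nearest in pattern over 15 classes, of which the first 2 are markers used in the gate of this class. No Hpgd UMI was counted in the plasmacytoid dendritic cells, whose libraries allow at most 6.98 to 11.7 CPM at 3 counts each.

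Summed over each class, Alox5 (chr6:116410077-116461178), 5-lipoxygenase, separated neutrophils from the other 10 classes. It had 49.4 CPM in control neutrophils, 128.7 with 2DG, 86.9 with 2FF, 116.2 with anti-PD-L1, 84.0 with 2DG plus anti-PD-L1 and 86.4 with 2FF plus anti-PD-L1. The control was the lowest, and no library of any other of the 11 classes reached it, the nearest being 15.1 CPM in plasmacytoid dendritic cells. Against classical monocytes low in interferon genes (1.60 to 2.499 CPM) the log2 fold change was 5.78 ± 0.22 (edgeR, adjusted p = 1.932e-11), the largest of any member in any comparison. A UMI was present in 17.0% to 29.5% of neutrophils and in 0.0659% to 0.458% of T cells. Mrc1 macrophages, with 3.65 to 13.7 CPM, were above the monocytes in 6 of 6 libraries without overlap (1.78 ± 0.16; edgeR, adjusted p = 1.872e-05). Non-classical monocytes were as well (1.404 ± 0.18; edgeR, adjusted p = 3.156e-05), from 3.60 to 7.33 CPM. In 20 mast cells and basophils, too few to enter any comparison, single libraries gave up to 934.9 CPM from at most 21 UMIs.

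Alox5ap (chr5:149264767-149288153), the 5-lipoxygenase activating protein, did not follow Alox5. Neutrophils had 430.5 to 642.7 CPM, non-classical monocytes 444.8 to 748.0, classical monocytes low in interferon genes 431.1 to 568.1, type 2 dendritic cells 352.4 to 444.7 and type 1 dendritic cells 333.2 to 425.1. Neutrophils exceeded the monocytes by only 0.52 ± 0.12 on the log2 scale (edgeR, adjusted p = 0.001279), and in CPM in 4 of 6 libraries. In CPM they were clearly higher with 2DG (642.7 against 463.4) and anti-PD-L1 (606.0 against 431.1) only. The levels were near equal with 2FF (533.0 and 528.2) and 2DG plus anti-PD-L1 (474.7 and 470.9). Neutrophils were slightly lower in the control library (544.5 and 568.1) and with 2FF plus anti-PD-L1 (430.5 and 446.5). Mrc1 macrophages had 301.8 to 353.3 CPM, below every value of those monocytes, by -0.68 on the log2 scale (edgeR, adjusted p = 3.616e-05). Type 1 and type 2 dendritic cells, which had at most 2.18 and 4.32 CPM of Alox5, thus carried Alox5ap near the level of the macrophages. Mature migratory dendritic cells were the exception with 71.6 CPM in the control library, 13.5 with 2DG, 23.6 with 2FF, 33.4 with anti-PD-L1, 62.8 with 2DG plus anti-PD-L1 and 21.4 with 2FF plus anti-PD-L1. All were below every type 2 dendritic cell value, by -3.34 ± 0.30 (edgeR, adjusted p = 3.466e-05). T cells had 4.34 to 14.4 CPM. The difference of 0.19 between non-classical and classical monocytes low in interferon genes passed the test (edgeR, adjusted p = 0.007447) but did not with 1 more marker asked of each cell (0.11, adjusted p = 0.163).

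Ltc4s (chr11:50236461-50238616), leukotriene C4 synthase, had 2 unlike places. Mrc1 macrophages had 26.1 CPM in the control library, 50.3 with 2DG, 40.8 with 2FF, 40.3 with anti-PD-L1, 45.6 with 2DG plus anti-PD-L1 and 49.2 with 2FF plus anti-PD-L1, above every value of the classical monocytes low in interferon genes (6.09 to 19.1 CPM) by 1.76 ± 0.24 (edgeR, adjusted p = 0.0005538). Without the cells that had a UMI of Prg4 the difference was 1.23 ± 0.13 (edgeR, adjusted p = 5.343e-05) and the ranges overlapped. Mature migratory dendritic cells had 44.2 CPM in the control library, 23.2 with 2DG, 10.4 with 2FF, 23.6 with anti-PD-L1, 19.3 with 2DG plus anti-PD-L1 and 29.1 with 2FF plus anti-PD-L1. Type 2 dendritic cells had no more than 4.02 CPM, and the log2 fold change was 3.77 ± 0.34 (edgeR, adjusted p = 1.154e-07). Migratory dendritic cells thus had more Ltc4s and less Alox5ap and Lta4h than type 2 dendritic cells, with 4 Alox5 UMIs in all of their libraries together. Non-classical monocytes were lower in Ltc4s than classical monocytes low in interferon genes (-1.19 ± 0.30; edgeR, adjusted p = 0.008639), and neutrophils were too (-1.18 ± 0.27; edgeR, adjusted p = 0.001291). A Ltc4s UMI was found in 9.33% to 13.3% of Mrc1 macrophages and at most 0.323% of T cells. A predicted antisense gene overlaps Ltc4s.

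Lta4h (chr10:93453411-93484875), leukotriene A4 hydrolase, was found in lymphocytes as well as in myeloid classes. Type 2 dendritic cells had 101.1 CPM in the control library, 145.2 with 2DG, 80.1 with 2FF, 86.2 with anti-PD-L1, 69.1 with 2DG plus anti-PD-L1 and 78.9 with 2FF plus anti-PD-L1, and mature migratory dendritic cells 8.05 to 24.6 CPM. The difference was -2.35 ± 0.17 (edgeR, adjusted p = 8.706e-09). T cells had 61.2 to 90.3 CPM, above most myeloid classes. NK cells were, like T cells, outside the compared classes, and the genes nearest to Lta4h in pattern were highest in NK cells. Both were left out of the ranking of classes, so type 2 dendritic cells need not be the highest of all gated cells. Non-classical monocytes (45.0 to 65.7 CPM) exceeded classical monocytes low in interferon genes (27.9 to 39.4 CPM) without overlap, by 0.70 ± 0.09 (edgeR, adjusted p = 2.355e-05). Neutrophils did so in 5 of 6 libraries, by 1.03 ± 0.29 (edgeR, adjusted p = 0.01031), the exception being the control at 21.4 CPM. Without that library the difference was 1.39 (adjusted p = 4.254e-06). Monocytes high in interferon genes were lower than those low in them (-0.38 ± 0.11; edgeR, adjusted p = 0.01368), a call lost without the 2FF plus anti-PD-L1 library (-0.36, adjusted p = 0.0541).

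A split of the Mrc1 macrophages was made after their values were seen. Cells of the class with a UMI of Prg4 (proteoglycan 4, a lubricating protein) were 1.504% to 4.12% of the class, 12 to 45 cells per library. They held 3.82% of the class's Ltc4s UMIs in the control mouse, 11.4% in the 2DG mouse, 23.3% with 2FF, 53.5% with anti-PD-L1, 66.2% with 2DG plus anti-PD-L1 and 26.9% with 2FF plus anti-PD-L1. Their Ltc4s level was 52.0 to 547.7 CPM against 16.3 to 45.6 CPM in the other cells of the class, their Ptgs1 level 234.1 to 340.2 against 52.2 to 90.1 CPM, and their Alox5 level 40.9 to 71.4 against 2.91 to 12.8 CPM. Hpgds went the other way, at 3.18 to 9.61 CPM with and 31.6 to 71.2 CPM without a Prg4 UMI. Ptgs2 was also lower with a Prg4 UMI in all 6 libraries, at 51.99 to 155.4 against 71.2 to 242.7 CPM, and Ptges was higher in 5 of 6, at 0 to 57.5 against 4.76 to 11.01 CPM, with 0 UMIs in the 2DG library. In the same split, the lipoxygenase Alox15 had 236.3 to 1076 CPM against 0.139 to 3.81 CPM, and the prostacyclin synthase Ptgis 86.5 to 266.7 against 0.185 to 0.997 CPM. Alox5ap (364.0 to 576.3 against 299.0 to 351.6 CPM) and Lta4h (19.2 to 38.3 against 25.4 to 34.7 CPM) differed much less. The ranges of Ptgs1, Alox5, Ltc4s and Hpgds do not overlap, as the plot of macrophages by Prg4 shows. In the control library the Alox5 level with a Prg4 UMI, 56.7 CPM from 12 UMIs, was above the 49.4 CPM of neutrophils. In the other libraries it was below the neutrophil level. No test is given, since the split was chosen on these cells. Mrc1 macrophages with a Ptgs1 UMI also had a Ltc4s UMI in 15.1% to 21.6% of cells and those without in 4.26% to 8.99%, at median depths of 12660 to 16340 and 8650 to 11930 UMIs.

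**Figure D4:**
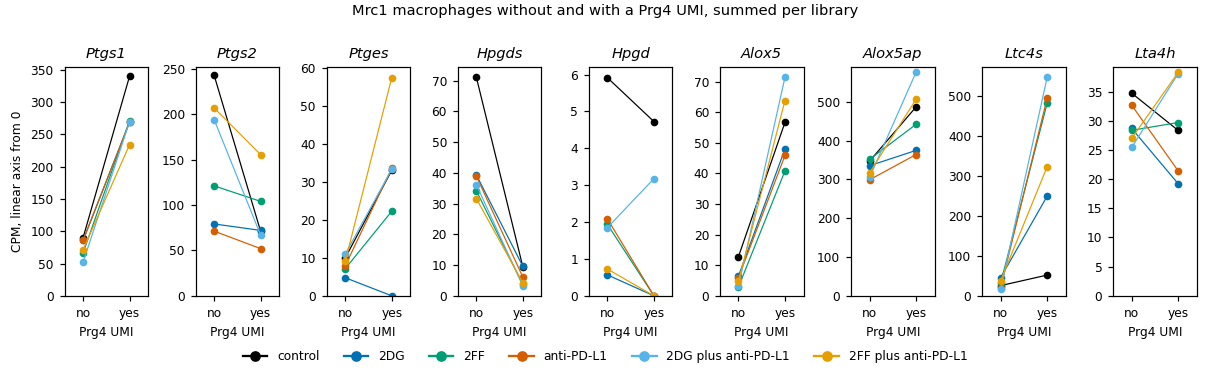
Summed level in CPM (y axes, linear from 0, one scale per gene) of the 9 genes in Mrc1 macrophages without and with a Prg4 UMI (x axis), with 1 line per library coloured by treatment group. Ptgs1, Alox5 and Ltc4s are higher with Prg4 in all 6 libraries and Ptgs2 and Hpgds are lower in all 6; the cells with Prg4 number 12 to 45 per library.

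A list of 42 further genes of the pathway was used, of which 41 name 1 gene each. Of all genes tested, 65.5%, 51.6%, 27.9%, 51.6%, 37.8% and 60.8% passed in the 6 comparisons, in the order below. The counts of pathway genes that passed are to be read beside these shares and alone say little. Between neutrophils and classical monocytes low in interferon genes 25 of them were tested, and 8 were higher and 11 lower in neutrophils. Highest were the glutathione transferase Mgst2 (4.36; edgeR, adjusted p = 0.0007003), the formyl peptide and lipoxin receptor Fpr2 (3.25) and the leukotriene-cleaving Ggt5 (3.09), and lowest Mgst3 (-2.90), the thromboxane synthase Tbxas1 (-2.78) and the cysteinyl leukotriene receptor Cysltr1 (-1.91). For Mrc1 macrophages against those monocytes, 6 of 28 were higher and 9 lower, with the largest values at Ptgis (2.85), Alox15 (2.62) and Cbr1 (0.81) on one side and by Mgst1 (-1.61), the prostacyclin receptor Ptgir (-1.49) and the transporter Abcc4 (-1.08) on the other. Spp1 against Mrc1 macrophages had 6 of 25 higher and 6 lower, with Anxa1 (1.29), Ptgr1 (1.23) and Abcc1 (0.82) against Alox15 (-4.62), Ptgis (-2.86) and Pla2g15 (-1.06). The Alox15 and Ptgis values of the Mrc1 class rest on its 12 to 45 cells per library with a Prg4 UMI. Without those cells Alox15 was at -1.51 against the monocytes (edgeR, adjusted p = 0.0622), and Ptgis there and both genes against Spp1 macrophages no longer passed the filter on low counts. In non-classical monocytes 4 of 24 were higher, among them Ptgir (0.95), Cyp4f18 (0.79) and Pla2g7 (0.46), and 10 lower, with Tbxas1 (-2.21), Cysltr1 (-1.76) and the leukotriene B4 receptor Ltb4r1 (-1.60) lowest. Monocytes high in interferon genes had 6 of 24 higher, with Fpr2 (1.03), the phospholipase Pla2g4a (0.46) and Pla2g7 (0.41) first, and 3 lower, Mgst1 (-0.36), Ptges3 (-0.30) and Pla2g15 (-0.29). Migratory dendritic cells had 2 of 15 higher than type 2 dendritic cells, Abcc1 (1.18) and the prostaglandin E receptor Ptger4 (0.61), and 9 lower, with Ggt5 (-3.08), Ltb4r1 (-2.98) and Cysltr1 (-2.84) lowest. The medians of the tested pathway genes in these 6 comparisons ran from -1.20 in migratory dendritic cells to -0.09 in Mrc1 macrophages, beside medians of all genes no lower than -0.15.

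Between treatments there is 1 library per group, so no test was possible; the values carry exact 95% intervals that cover counting error only, and the difference between mice and the effect of a treatment cannot be told apart. Fewer cells of a kind inside a class and less RNA per cell cannot be told apart either. Relative to all genes, members past 2-fold on the log2(CPM + 5) scale were 5 of 7 in neutrophils for 2DG over control (13.5% of all genes), 2 of 7 for 2FF (15.4%) and 5 of 7 for anti-PD-L1 (10.5%), and, against the antibody alone, 1 of 5 when 2DG was added (4.99%) and 1 of 5 when 2FF was added (3.66%). In classical monocytes low in interferon genes they were 2 of 9 for 2DG (5.4%), 2 of 9 for 2FF (5.66%), 1 of 9 for anti-PD-L1 (5.03%), 0 of 8 when 2DG was added to the antibody (0.747%) and 1 of 8 when 2FF was added (0.457%). In Mrc1 macrophages they were 1 of 9 for 2DG (2.19%), 2FF (3.27%) and anti-PD-L1 (2.04%), and 1 of 8 when 2DG (1.31%) or 2FF (0.658%) was added to the antibody. Median ratios of all genes over control were up to 0.24 on the log2 scale in neutrophils and up to 0.16 in these monocytes, and within 0.1 of 0 elsewhere except in monocytes high in interferon genes, where they reached 0.15.

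Of the 25 member values past 2-fold in these 3 classes 12 were of Ptgs2, which made up 2 of 12 against control in neutrophils, 5 of 8 against control in the other 2 classes and 5 of 5 against anti-PD-L1. Ptgs2 was highest in the control library in 8 of the 9 classes measured in all 6, and the 2DG, 2FF and anti-PD-L1 libraries were lower than control in nearly every class (the plot of Ptgs2 between libraries). In classical monocytes low in interferon genes it was 768.1 CPM in the control library and 99.6 with 2DG (ratio 0.13, 0.121 to 0.139), 186.9 with 2FF (0.243, 0.232 to 0.255) and 140.3 with anti-PD-L1 (0.183, 0.174 to 0.192). Neutrophils differed less, with ratios of 0.491 (0.454 to 0.53) for 2DG, 0.885 (0.839 to 0.933) for 2FF and 0.438 (0.397 to 0.483) for anti-PD-L1. In mature migratory dendritic cells the level was 155.7 CPM in the control library and 18.8, 33.1 and 14.7 CPM with 2DG, 2FF and anti-PD-L1, from 18 to 35 UMIs. Neutrophil markers in the monocytes low in interferon genes summed to 3221 CPM in the control library and 402.3 to 1157 CPM in the others, and Spp1 macrophage markers to 11200 CPM and 3494 to 6058 CPM; their part in the Ptgs2 difference was not tested. In the control library, neutrophils had 1107 CPM of Ptgs2 and 59100 CPM of neutrophil markers. The monocytes there had 768.1 CPM of Ptgs2, 3221 CPM of neutrophil markers and 11200 CPM of Spp1 macrophage markers. What these values mean for the Ptgs2 difference was not tested.

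Both combinations were higher in Ptgs2 than anti-PD-L1 alone in the 7 classes with enough cells. In monocytes high in interferon genes the interval with 2DG added includes 1. Every ratio rests on the same anti-PD-L1 library, which was the lowest in Ptgs2 in neutrophils, Mrc1 macrophages and type 2 and migratory dendritic cells. Spp1 macrophages, too few for a ratio, had 572.7 CPM with anti-PD-L1, 497.9 with 2DG plus anti-PD-L1 and 749.6 with 2FF plus anti-PD-L1. The ratio over anti-PD-L1 for 2DG plus anti-PD-L1 was 2.11 (1.88 to 2.37) in neutrophils, 2.66 (2.42 to 2.93) in Mrc1 macrophages, 3.92 (2.83 to 5.53) in type 2 dendritic cells and 6.16 (3.57 to 11.1) in migratory dendritic cells. For 2FF plus anti-PD-L1 the corresponding ratios were 2.20 (1.97 to 2.46), 2.91 (2.65 to 3.21), 2.98 (2.11 to 4.26) and 7.63 (4.51 to 13.6), and 2.09 (1.97 to 2.22) in classical monocytes low in interferon genes. For 2DG plus anti-PD-L1 those monocytes were at 1.39 (1.30 to 1.48). Monocytes high in interferon genes differed least, at 1.06 (0.96 to 1.17) and 1.42 (1.30 to 1.55). Over the 7 classes with enough cells the ratios were 1.06 to 6.16 and 1.42 to 7.63. With 1 more marker asked of each cell, non-classical monocytes were no longer higher with 2DG added (-0.0347 on the log2(CPM + 5) scale). The early response sum was also higher with both combinations than with anti-PD-L1 in neutrophils (18040 and 18430 against 16440 CPM) and in Mrc1 macrophages (13600 and 11490 against 7797 CPM), and its part in this was not tested.

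**Figure D5:**
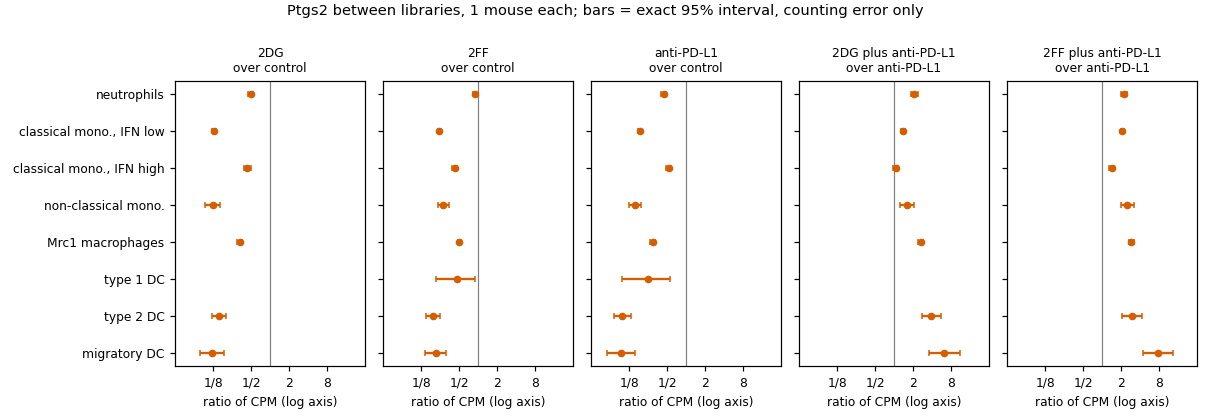
Ratio of Ptgs2 CPM between 2 libraries (x axis, log scale; bars, exact 95% interval for counting error only) in each cell class (y axis) for 5 comparisons of treatment groups with 1 mouse each. The single agents lie below 1 against control in all classes shown, with ratios from 0.0942 to 0.885, and both combinations lie above 1 against anti-PD-L1, from 1.06 to 7.63.

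The other members differed in fewer classes. In neutrophils the 3 single-agent libraries were above control in Ptgs1 (ratios 5.82 for 2DG, 4.44 for 2FF and 3.98 for anti-PD-L1), Alox5 (2.61, 1.76 and 2.35) and Lta4h (4.32, 1.86 and 2.40). The 117 Lta4h UMIs with 2DG lay in 38 of 315 neutrophils. The 3 single-agent libraries were below control in Hpgds (0.0306, 0.0761 and 0.376), from 2, 6 and 17 UMIs against 745 in the control library. All 3 share the control library, in which mononuclear phagocyte markers summed to 600.5 CPM in neutrophils against 1752 to 2585 CPM in the others, so the neutrophil classes were not alike in makeup. Their part in these differences was not tested. In Mrc1 macrophages Hpgds was lower than control (0.552, 0.48 and 0.536), Alox5 was lower (0.542, 0.267 and 0.564), Hpgd was lower from 5 to 26 UMIs (0.094, 0.322 and 0.339), and Ltc4s was higher (1.93, 1.56 and 1.54). Without the Mrc1 macrophages that had a Prg4 UMI the Ltc4s ratios were 1.78, 1.25 and 0.766, so that the direction turned for anti-PD-L1. Ptges was lower than control in classical monocytes low in interferon genes (0.255, 0.294 and 0.493). Hpgd was higher than control in non-classical monocytes, with 45.8 CPM in the control library and ratios of 1.69 (1.36 to 2.11), 1.93 (1.55 to 2.41) and 2.26 (1.85 to 2.78), and in classical monocytes low in interferon genes (2.31, 2.88 and 3.42). With 2FF plus anti-PD-L1 it was lower than with anti-PD-L1 in both (0.64 and 0.486). Alox5ap was lower than control in non-classical monocytes with 2DG (0.595) and anti-PD-L1 (0.666) and in migratory dendritic cells with 2DG (0.188), 2FF (0.33) and anti-PD-L1 (0.466). Lta4h in type 1 dendritic cells was higher with 2DG (1.54, 1.11 to 2.16) and in monocytes high in interferon genes lower with it (0.51, from 14 UMIs). Ltc4s in migratory dendritic cells was lower than control with all 3 (0.526, 0.235 and 0.534).

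The genes nearest to the remaining members over the 15 classes, by Pearson r of log2(CPM + 5), were Cited2 (0.87), Rhob (0.85) and Slpi (0.82) for Ptges, Slc37a2 (0.73), Cltc (0.72) and Cd72 (0.72) for Hpgds, Gm2511 (0.96), Cstdc5 (0.96) and Sycp2 (0.96) for Alox5, Pgs1 (0.97), Gpr35 (0.96) and Clec12a (0.95) for Alox5ap, Tnfrsf11a (0.85), Hgf (0.83) and Dnase1l1 (0.81) for Ltc4s, and Nbeal2 (0.85), 5830432E09Rik (0.82) and F2rl2 (0.81) for Lta4h. The points share libraries and class depth, and 10049 genes were compared. The genes nearest to Alox5 had their highest level in neutrophils, whereas those nearest to Lta4h had theirs in NK cells. Hpgds had no gene above an r of 0.73, the lowest of the 9.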

How the data were processed

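Single cells of 6 tumors were measured with 10x 3′ v3.1 chemistry. The authors deposited filtered UMI counts per gene and cell, made with Cell Ranger on mm10, version 7.0.0 by the file header and 3.1.0 by the submitters' processing notes. Groups were taken from the sample labels.

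Cells with fewer than 250 genes or over 5% mitochondrial UMIs were left out, and the rest were placed in classes by counting detected marker genes (5 of 9 for neutrophils, 5 of 8 for Mrc1 and 5 of 7 for Spp1 macrophages, 2 of 9 for tumor cells; 2 listed markers are not in the files). Doublets were kept; an alternative left out the 3573 cells with the highest scrublet scores, since the caller's own cut marked 1 cell of the control library. UMI counts were summed per class and library where at least 20 cells were present. Classes were compared with edgeR 4.0.16 (R 4.3.3; TMM, quasi-likelihood, library block), the block being the mouse that both classes came from. The script, tested on simulated data with known changes, recovered them.

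Treatments have 1 library each and were compared with no test, as CPM ratios with exact intervals and as log2(CPM + 5), in classes with at least 50 cells and genes with at least 50 UMIs over both libraries. Members named between treatments passed 1.5-fold with an interval that excludes 1. Pathway genes named were the 3 highest and 3 lowest of those called. Intervals and limits from 3 counts cover counting error only. Shares were also computed after thinning cells to 1000 UMIs. The members, lists and classes were chosen with earlier results of these data known. Alternatives were DESeq2 1.42.0, no filter, no block, 1 fit for all classes, other cell filters, 1 more marker, 1 CPM added, at least 10 UMIs, centring and leaving out each library. The split by Prg4, and leaving out the Mrc1 macrophages with a Prg4 UMI, were chosen after seeing the data. Python 3.11.15 with scipy 1.17.1 and scanpy 1.11.5 was used.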

Additional observations from a re-analysis of the deposited data

Results flagged for a closer look

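In 14 cases a member differed in one direction between a single agent and the control library and in the other between the same agent with anti-PD-L1 and anti-PD-L1 alone. Each contrast is 1 library against 1 other, so the difference between the contrasts was not tested. Values are log2 ratios of CPM + 5, the combination over anti-PD-L1 first and the agent over control second. With 2DG, Ptgs2 was at 1.07 and -1.02 in neutrophils, 0.57 and -2.74 in non-classical monocytes, 1.35 and -1.54 in Mrc1 macrophages, 1.74 and -2.52 in type 2 dendritic cells and 2.28 and -2.76 in mature migratory dendritic cells. Alox5ap in mature migratory dendritic cells was at 0.82 and -2.05. With 2FF, Ptgs2 was at 1.04 and -2.01 in classical monocytes low in interferon genes, 1.17 and -1.72 in non-classical monocytes, 1.48 and -0.96 in Mrc1 macrophages, 1.37 and -2.23 in type 2 dendritic cells and 2.57 and -2.08 in mature migratory dendritic cells. Ptgs1 in neutrophils was at -0.63 and 1.74. Hpgd was at -0.62 and 0.79 in classical monocytes low in interferon genes and at -0.61 and 0.88 in non-classical monocytes. Of these cases, 2 lost their opposite directions under another setting: the first value became -0.0347 for Ptgs2 in non-classical monocytes with 2DG when 1 more marker was asked of each cell, and -0.0375 for Alox5ap in mature migratory dendritic cells with 2DG when doublets were left out. The first value of each pair rests on the same anti-PD-L1 library. That library was the lowest in Ptgs2 in neutrophils, Mrc1 macrophages and type 2 and mature migratory dendritic cells. The second value of each pair rests on the same control library, which was highest in Ptgs2 in 8 of 9 classes.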

How the results depend on the processing

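Of the re-computed member values in class comparisons, 648 kept their direction and side of the threshold, 30 lost the call, 2 gained it and none reversed. Without the library block, 3777 genes in place of 5672 were called between non-classical and classical monocytes low in interferon genes, and 1932 in place of 4251 between monocytes high and low in them, with 1 member called in place of 7. With all myeloid classes in 1 fit the last comparison gave 2603 genes and 3 members. Without the filter on low counts, 5 members in place of 3 were called between migratory and type 2 dendritic cells. With 1 CPM added in place of 5, the percent of genes past 2-fold over control was 23.6 for 2DG, 25.7 for 2FF and 19.7 for anti-PD-L1 in neutrophils, 10.04, 10.15 and 9.79 in classical monocytes low in interferon genes and 4.70, 7.09 and 4.46 in Mrc1 macrophages. Over anti-PD-L1 it was 1.93 and 3.01 for 2DG plus anti-PD-L1 and 1.23 and 1.69 for 2FF plus anti-PD-L1 in those monocytes and macrophages. At 10 UMIs the neutrophil percent for 2DG plus anti-PD-L1 was 7.86. Of the member values between treatments, 593 moved by less than their interval, 28 moved by more and 3 reversed. Over anti-PD-L1, with 2DG added, Ptgs2 in non-classical monocytes became -0.0347 with 1 more marker, and Alox5ap in migratory dendritic cells -0.0375 with doublets left out. Ltc4s for anti-PD-L1 over control in Mrc1 macrophages became -0.3143 without the cells with a Prg4 UMI, an alternative chosen after seeing the data. The cause was not tested. With 1 more marker, Spp1 and Mrc1 macrophages could not be compared. No paired analysis was possible between treatments because each has 1 library; classes were paired by the library block.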
